A study of Mus musculus with 8 samples.

Results

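The 10 genes described here belong to the mast cell (MC) growth factor and cytokine receptor system: Kit, its ligand Kitl, the receptor chains Il3ra, Csf2rb, Csf2rb2, Csf2ra, Il4ra and Il9r, and the inhibitory and activating CD200 receptors Cd200r1 and Cd200r3. They were chosen by symbol, each from the transcript cluster (the array's unit for a gene) with exactly 1 symbol in the platform annotation, and all 10 were found among 21320 genes measured. Each had 1 such cluster. The study asked how anti-angiogenic therapy changes MC of a tumor and of a distant site. Sorted MC from C57BL/6J mice were hybridized to single-colour Affymetrix Mouse Gene 2.1 arrays, 2 arrays in each of 4 groups. These were tumor MC of mice that received 40 mg/kg DC101, tumor MC of placebo-treated mice, peritoneal MC of mice that received 40 mg/kg DC101 and peritoneal MC of placebo-treated mice. DC101 is an antibody that blocks mouse VEGF receptor 2, which is encoded by Kdr. All mice carried Panc02 tumors, grown from a mouse pancreatic cancer line under the skin of the flank, and treatment was assigned at random once a tumor measured 100 mm3, so the peritoneal MC also came from tumor-bearing animals. The age and sex of the mice were not stated.

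MC were gated by flow cytometry with DAPI and antibodies to CD45, CD11b, CD117 and FceRI. CD117 is the KIT protein itself, so the presence of Kit mRNA was set in part by the sort and is no finding. Values are RMA log2 levels per transcript cluster. They carry no detection call, levels of different genes are not on a common scale, and a value near that of the median cluster (3.48 over 24111 clusters) cannot be separated from background. The array medians lay between 3.34 and 3.46, and the correlation of the 2 arrays of a group over all clusters lay between 0.974 and 0.986. All 11 of the MC markers (Kit, Fcer1a, Cpa3 and others) stood above the median cluster in every group, with group means of 9.24 to 9.62. Among them, Kit, Fcer1a and Ms4a2 belong to proteins of the gate (CD117 and FceRI), so their presence is no check of the sort. Markers of other cells were present as well: all 5 B cell markers and all 8 macrophage markers stood above the median cluster in both peritoneal groups, and all 5 fibroblast markers did in both tumor groups. Of 4 epithelial or tumor cell markers, 3 stood above it in both tumor groups and 4 in both peritoneal groups. Kdr, the target of DC101, lay between 1.96 and 3.03 on all 8 arrays, below the median cluster. In a sorted sample, fewer cells of a type and less RNA per cell cannot be told apart. Whether the 2 arrays of a group represent different mice is not stated, and p-values therefore cover the spread among arrays only, which may be technical.

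KIT is the receptor tyrosine kinase on which MC depend for survival and maturation, and KIT ligand (stem cell factor) is made in membrane-bound and soluble forms by stromal cells such as fibroblasts. IL-3 and GM-CSF signal through cytokine-specific α chains that pair with a common β chain, and the mouse carries a second β chain gene, Csf2rb2, whose product is used by IL-3 only. IL-4 and IL-9 use α chains that pair with the common γ chain, and all of these receptors act through JAK kinases and STAT factors. The CD200 receptors of mouse MC and basophils include CD200R1, which inhibits degranulation when it binds CD200, and CD200R3, which signals through an activating adapter.

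The stretch of 250 bases before the transcription start was taken from RefSeq (GRCm38.p6), which held 8 of the 10 genes. The 4 shown belong to genes that were higher together on the same array of each tumor group, as described below. Capitals mark GATA (either strand), the core of the site that GATA factors bind, and TTCNNNGAA, the core of the site that STAT factors bind. For Kit, the table gave 2 starts and the first was used.

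Kit, chr5:75574737-75574986, plus strand: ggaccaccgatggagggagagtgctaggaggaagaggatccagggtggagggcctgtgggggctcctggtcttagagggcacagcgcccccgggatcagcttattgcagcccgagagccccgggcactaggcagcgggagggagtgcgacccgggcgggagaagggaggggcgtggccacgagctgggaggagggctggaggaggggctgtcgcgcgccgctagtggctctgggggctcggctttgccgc
Csf2rb2, chr15:78305722-78305971, minus strand: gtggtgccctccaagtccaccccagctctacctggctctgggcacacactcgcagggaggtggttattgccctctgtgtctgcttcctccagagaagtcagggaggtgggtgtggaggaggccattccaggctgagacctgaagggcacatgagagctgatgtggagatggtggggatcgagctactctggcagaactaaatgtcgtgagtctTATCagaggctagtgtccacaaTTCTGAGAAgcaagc
Il9r, chr11:32200280-32200529, minus strand: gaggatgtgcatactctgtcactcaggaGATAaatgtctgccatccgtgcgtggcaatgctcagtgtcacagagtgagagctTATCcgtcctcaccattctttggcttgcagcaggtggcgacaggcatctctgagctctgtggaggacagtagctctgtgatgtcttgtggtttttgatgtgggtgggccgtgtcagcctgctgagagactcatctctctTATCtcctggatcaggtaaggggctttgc
Cd200r3, chr16:44943428-44943677, plus strand: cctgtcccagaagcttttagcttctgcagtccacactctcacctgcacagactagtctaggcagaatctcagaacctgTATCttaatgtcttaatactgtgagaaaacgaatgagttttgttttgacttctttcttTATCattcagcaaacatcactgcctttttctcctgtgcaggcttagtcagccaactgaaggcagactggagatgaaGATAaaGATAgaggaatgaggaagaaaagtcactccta

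GATA occurred in 4 of the 8 windows, against 54.1% of 27025 promoter windows of the same length. Cd200r3 carried it 4 times and Il9r 3 times. At least 4 occurrences were found in 3.68% of all windows and at least 3 in 9.89%. Csf2rb2 held 1 GATA, and the window of Kit held none. TTCNNNGAA was found once, in Csf2rb2, and in 7.18% of all windows. CANNTG, the E-box core that was also searched, occurred in 5 of the 8 windows and in 66.0% of all. A match is a description of letters and not a bound site. On the chromosome, Kit lies between Pdgfra and Kdr, Csf2rb lies next to Csf2rb2, and Cd200r1, Cd200r4, Cd200r2 and Cd200r3 follow one another. Csf2rb and Csf2rb2 are near-identical copies, as are parts of the CD200 receptor genes, so probes can read a copy and values of these genes are uncertain to that extent.

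In tumor MC, none of the receptor genes passed the test for a response to DC101. With limma's moderated test over all clusters and a Benjamini-Hochberg adjusted p under 0.05, 0 of 10 were called, against 0% of clusters (0 of 24111). In peritoneal MC, 5 of 10 were called, against 4.58% of clusters. Kitl, Csf2ra, Il4ra and Cd200r1 rose (4 genes, against 2.48% of clusters that rose), and Il9r fell (1 gene, against 2.1%). Tumor MC and peritoneal MC themselves differed in 7 of the 10, against 29.5% of clusters. Kitl, Csf2rb2, Cd200r3, Csf2rb and Il4ra were higher in tumor MC (5 genes, against 16.3% of clusters) and Csf2ra and Cd200r1 lower (2 genes, against 13.2%). Kitl lay below the median cluster on both peritoneal placebo arrays, and with such values set to that level (a setting chosen after seeing the data) its peritoneal call was lost and 4 remained. The peritoneal calls also depended on single arrays. Without either tumor DC101 array, 3 were called (Kitl, Il4ra and Il9r), and without either tumor placebo array 3 as well (Il4ra, Il9r and Cd200r1). Without peritoneal DC101 replicate 2 only Il4ra was called, without peritoneal placebo replicate 1 only Csf2ra, and without peritoneal DC101 replicate 1 or peritoneal placebo replicate 2 there were 0.

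**Figure D1:**
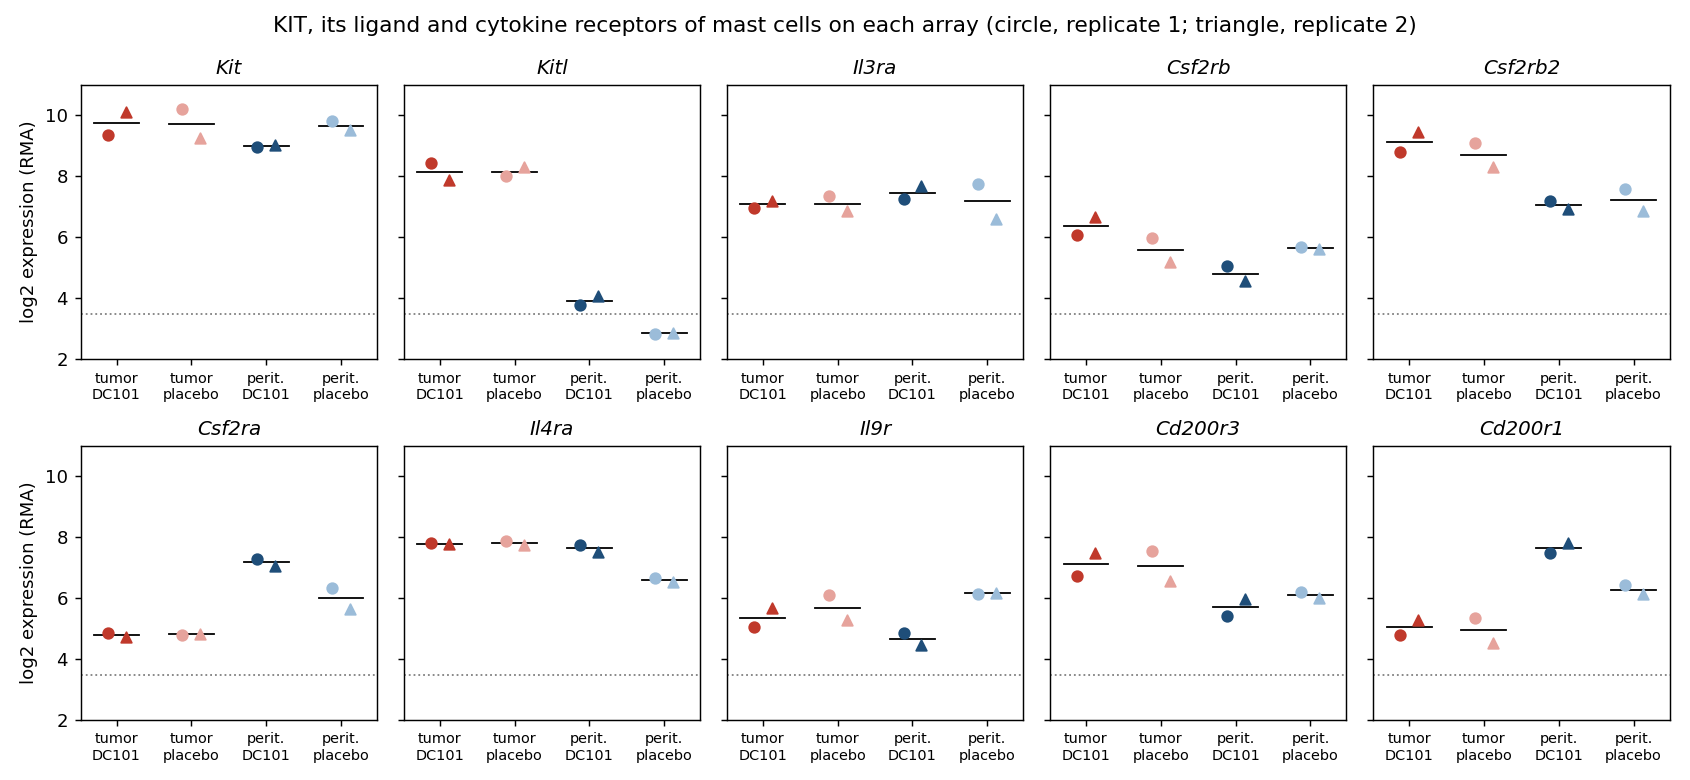
RMA log2 level (vertical axis) of each gene on the 8 arrays, by group (horizontal axis); circles are replicate 1, triangles replicate 2, bars group means, and the dotted line marks the median cluster (3.48). Kitl separates tumor from peritoneal MC, and Csf2ra, Il4ra and Cd200r1 stand higher with DC101 than with placebo in peritoneal MC.

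Kit, the gene of the stem cell factor receptor, had log2 levels of 9.36 and 10.11 in tumor MC with DC101 and 10.20 and 9.26 in tumor MC with placebo. In peritoneal MC, the levels were 8.96 and 9.03 with DC101, against 9.80 and 9.52 with placebo. In tumor MC, 1 array of each treatment was high and 1 was low, so the groups overlapped completely, whereas both peritoneal DC101 arrays lay below both peritoneal placebo arrays and below all tumor arrays. The log2 fold change of Kit with DC101 was 0.01 (SE 0.34, 95% interval −0.77 to 0.78) in tumor MC. In peritoneal MC it was −0.67 (SE 0.34, interval −1.45 to 0.10, adjusted p = 0.342), which did not pass. The group means of Kit were 9.74 ± 0.53 in tumor DC101, 9.73 ± 0.66 in tumor placebo, 8.99 ± 0.05 in peritoneal DC101 and 9.66 ± 0.20 in peritoneal placebo (SD, n = 2 each). Peritoneal DC101 came last in this order, and no neighbouring groups differed by the test.

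The ligand gene Kitl separated the compartments on every array. Its log2 levels were 8.44 and 7.87 in tumor MC with DC101 and 8.001 and 8.30 in tumor MC with placebo. Peritoneal MC had 3.77 and 4.08 with DC101, against 2.82 and 2.86 with placebo. All tumor arrays were far above all peritoneal arrays, and the peritoneal placebo arrays lay below the median cluster. The fitted difference of tumor minus peritoneal MC was 4.77 on the log2 scale (SE 0.17, adjusted p = 2.13e-07). Since the peritoneal placebo level cannot be separated from background, its size is a lower bound: with values under the median cluster set to it, Kitl was at least 21.9-fold higher in tumor MC, a log2 difference of 4.45. In peritoneal MC, Kitl passed the test for a rise with DC101, with a fitted change of 1.08 (SE 0.25, adjusted p = 0.0426). With values under the median cluster set to it, that change was 0.44 and did not pass (adjusted p = 0.252), so the rise could not be separated from background. In tumor MC, its fold change was 0.01 (interval −0.55 to 0.56). All 5 fibroblast markers were also higher in tumor MC, with mean levels of 7.81 with DC101 and 7.91 with placebo in tumor MC, against 3.91 with DC101 and 4.68 with placebo in peritoneal MC. Of 4 epithelial or tumor cell markers, 2 were higher and 1 lower in tumor MC. Krt18 was higher by 4.39 and Krt8 by 3.92, and both lay between 9.40 and 10.11 on the tumor arrays. Epcam, the lower one, was under the median cluster on all tumor arrays. The part of fibroblasts and of epithelial or tumor cells in the Kitl difference was not tested. In the peritoneal groups, 2 of the 5 fibroblast markers, Dcn and Thy1, were lower with DC101, and 3 did not pass. Of these 3, Pdgfra lay under the median cluster on all 4 peritoneal arrays and Col1a1 on 3 of them. The part of fibroblasts in the peritoneal Kitl values was not tested.

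Among the chains that bind IL-3, the α chain gene Il3ra passed the test in no comparison. It had 6.95 and 7.20 in tumor MC with DC101 and 7.35 and 6.85 with placebo. In peritoneal MC, 7.25 and 7.69 were measured with DC101, against 7.75 and 6.61 with placebo. The peritoneal placebo arrays differed by 1.14 from each other, the widest gap between replicates for any of the 10 genes in any group. The log2 fold change with DC101 was −0.03 (SE 0.37) in tumor MC and 0.29 (SE 0.37, interval −0.54 to 1.12) in peritoneal MC.

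Csf2rb, the common β chain, was the only one of the 10 whose tumor groups did not overlap, where 36.3% of all clusters had groups that did not. It had 6.07 and 6.67 in tumor MC with DC101, against 5.99 and 5.19 with placebo. In peritoneal MC, it had 5.07 and 4.55 with DC101, against 5.69 and 5.62 with placebo. Tumor DC101 was thus the highest group and peritoneal DC101 the lowest, while the placebo groups lay between them and overlapped. The log2 fold change with DC101 was 0.78 (SE 0.32, interval 0.06 to 1.51, adjusted p = 0.981) in tumor MC, so the unadjusted interval left out 0 but the gene did not pass. The change was −0.84 (SE 0.32, interval −1.57 to −0.12, adjusted p = 0.191) in peritoneal MC. The difference of these responses, tumor minus peritoneal, was 1.62 (SE 0.45, adjusted p = 0.157).

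Csf2rb2, the β chain for IL-3 alone, was higher in tumor MC than in peritoneal MC on all arrays. Tumor MC had 8.79 and 9.46 with DC101 and 9.09 and 8.32 with placebo. Peritoneal MC had 7.18 and 6.92 with DC101, against 7.57 and 6.87 with placebo. The lowest tumor array stood above the highest peritoneal array, and within each compartment the treatments overlapped. The compartments differed by 1.78 (SE 0.25, 3.44-fold, adjusted p = 0.000549). The response to DC101 was 0.42 (SE 0.35, interval −0.37 to 1.22) in tumor MC and −0.17 (SE 0.35, interval −0.96 to 0.63) in peritoneal MC. For Csf2rb, the difference between compartments rested on the DC101 arrays. It was 0.75 over both treatments (SE 0.23, adjusted p = 0.0334), 1.56 among DC101 arrays and −0.06 among placebo arrays. Csf2rb lost this call without tumor DC101 replicate 2 (0.60), tumor placebo replicate 1 (0.55), peritoneal DC101 replicate 2 (0.62), peritoneal placebo replicate 1 (0.77) or peritoneal placebo replicate 2 (0.73).

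Csf2ra, the α chain for GM-CSF, was lower on every tumor array than on any peritoneal array. Tumor MC had 4.84 and 4.73 with DC101 and 4.78 and 4.82 with placebo, with little spread. Peritoneal MC had 7.29 and 7.06 with DC101, against 6.33 and 5.64 with placebo. Both peritoneal DC101 arrays exceeded both peritoneal placebo arrays, which in turn exceeded all tumor arrays. The rise with DC101 in peritoneal MC was 1.19 (SE 0.25, 2.28-fold, adjusted p = 0.0308), and the change in tumor MC was −0.02 (interval −0.58 to 0.55). The difference of tumor minus peritoneal MC was −1.79 (SE 0.18, adjusted p = 6.39e-05), with −2.39 among DC101 arrays and −1.18 among placebo arrays.

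The IL-4 receptor α chain gene Il4ra lay between 7.51 and 7.87 on the arrays of 3 groups and lower on those of the fourth. It had 7.79 and 7.76 in tumor MC with DC101 and 7.87 and 7.75 with placebo. Peritoneal MC had 7.74 and 7.51 with DC101, against 6.64 and 6.53 with placebo. Only the peritoneal placebo arrays stood apart, below all 6 others. Il4ra rose with DC101 in peritoneal MC by 1.05 (SE 0.19, 2.07-fold, adjusted p = 0.0183), and its change in tumor MC was −0.03 (SE 0.19, interval −0.46 to 0.40). Tumor MC exceeded peritoneal MC by 0.69 (SE 0.13, adjusted p = 0.00407), by 0.15 among DC101 arrays (interval −0.28 to 0.58, adjusted p = 0.675) and by 1.23 among placebo arrays (adjusted p = 0.00192).

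Il9r, the α chain for IL-9, a growth factor of MC, moved in the opposite direction. It had 5.03 and 5.68 in tumor MC with DC101 and 6.09 and 5.27 with placebo. Peritoneal MC had 4.86 and 4.46 with DC101, against 6.14 and 6.15 with placebo. The peritoneal DC101 arrays were the lowest of all 8, and the tumor groups overlapped. Il9r fell by 1.49 on the log2 scale in peritoneal MC (SE 0.32, adjusted p = 0.0345), where the placebo level was 2.81 times that with DC101. The change in tumor MC was −0.32 (SE 0.32, interval −1.05 to 0.40). In peritoneal MC, T and NK cell markers (6 of 9) and B cell markers (2 of 5) were also lower with DC101. The part of these cells in the lower Il9r was not tested.

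The CD200 receptor genes ran in opposite directions between the compartments. Cd200r3 had 6.73 and 7.48 in tumor MC with DC101 and 7.56 and 6.54 with placebo. It had 5.41 and 5.98 in peritoneal MC with DC101, against 6.19 and 5.99 with placebo. Every tumor array lay above every peritoneal array, by 1.19 in the means (SE 0.27, 2.28-fold, adjusted p = 0.00829). That difference was 1.41 among DC101 arrays, where it passed, and 0.96 among placebo arrays, where it did not (adjusted p = 0.117). The response to DC101 was 0.06 (interval −0.80 to 0.91) in tumor MC and −0.39 (interval −1.25 to 0.46) in peritoneal MC. Basophils also carry this receptor. All 7 basophil markers stood above the median cluster in every group mean, though Itga2 lay under it on 1 of the 8 arrays. They include Il3ra, Cd200r3 and Fcer1a, which is also among the MC markers, so the level of the list does not by itself show basophils. The mean levels of the list were 7.32 with DC101 and 7.17 with placebo in tumor MC. In peritoneal MC, the means were 7.62 with DC101 and 7.86 with placebo. Higher in tumor MC were 2, Cd200r3 itself and Cyp11a1 (1.02), and lower were 3, Itga2 (−2.18), Prss34 (−2.16) and Mcpt8 (−0.94). The part of basophils in the Cd200r3 difference was not tested.

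Cd200r1, the inhibitory receptor, had 4.78 and 5.28 in tumor MC with DC101 and 5.35 and 4.54 with placebo. Peritoneal MC had 7.46 and 7.79 with DC101, against 6.44 and 6.12 with placebo. Peritoneal DC101 arrays were the highest, peritoneal placebo arrays came next and all tumor arrays were lowest. In peritoneal MC, Cd200r1 rose with DC101 by 1.35 (SE 0.31, 2.55-fold, adjusted p = 0.0435), the largest rise among the 10 genes. Its change in tumor MC was 0.09 (SE 0.31, interval −0.61 to 0.79). Tumor minus peritoneal MC gave −1.97 (SE 0.22, adjusted p = 0.000135).

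Within the tumor groups, 1 array of each treatment was high for many of the receptor genes at once. Replicate 2 of tumor DC101 exceeded replicate 1 in 7 of 10 genes, and in tumor placebo replicate 1 exceeded replicate 2 in 8 of 10. Kit, Il3ra, Csf2rb, Csf2rb2, Il9r, Cd200r3 and Cd200r1 did so in both groups, with Cd200r3 differing by 0.75 between the DC101 replicates and by 1.01 between the placebo replicates. The MC markers were high on the same arrays, 10 of 11 in tumor DC101 and 11 of 11 in tumor placebo. Without Kit, their mean was 9.25 and 9.81 on the tumor DC101 arrays and 9.96 and 9.26 on the tumor placebo arrays. The part of MC content in these gaps was not tested. Kitl ran the other way and was the lower of its group on both of these arrays.

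For the DC101 response in tumor MC, log2 fold changes lay between −0.32 (Il9r) and 0.78 (Csf2rb), with adjusted p-values of 0.981 to 0.9996. At an unadjusted p under 0.05, 1 of the 10 (Csf2rb) was counted, against 5.04% of clusters. Thresholds on p and on the size of the change are stated for the original comparison with an f-test, and whether p was adjusted is not stated. Taken here as limma's unadjusted p under 0.05 with a change of 1 log2 unit or more (below, the methods' thresholds), 0 of 10 were counted, against 0.68%. The median over the 10 was 0.01, beside −0.03 over all clusters. The 95% intervals reached from −1.05 to 1.51, so the test does not show that levels were alike.

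**Figure D2:**
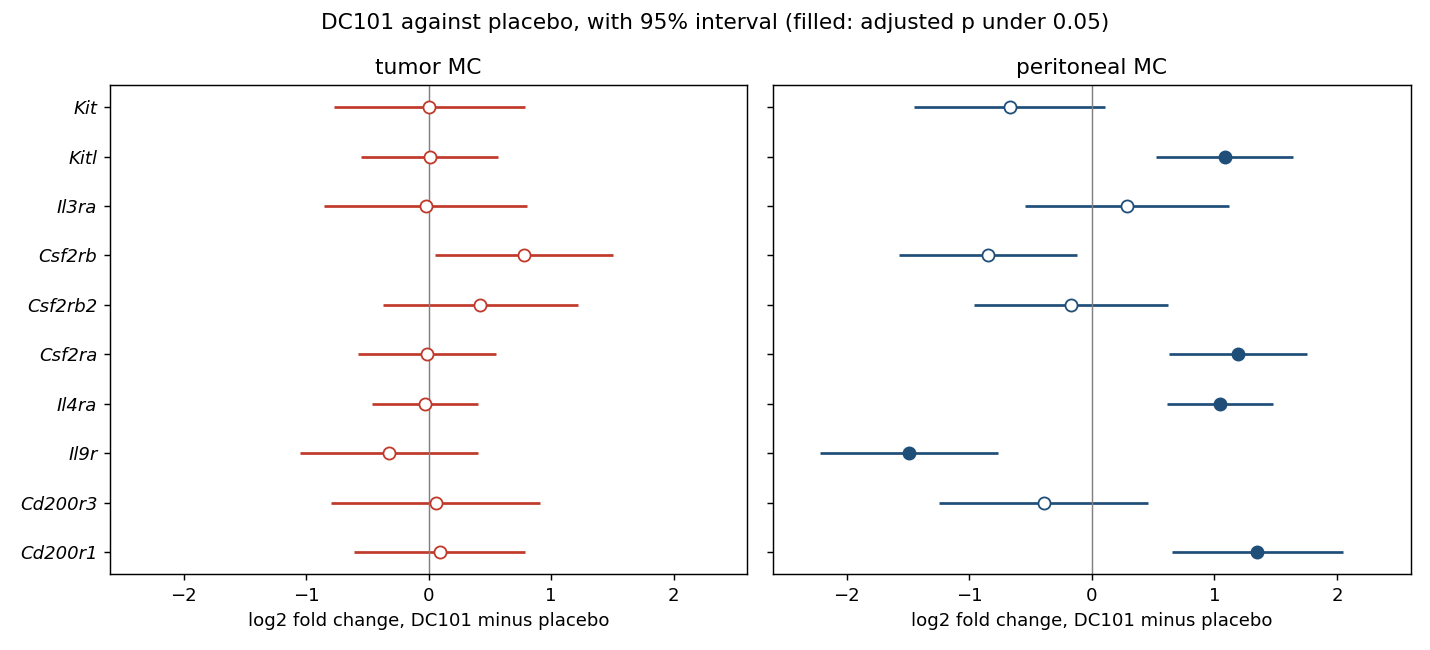
Log2 fold change, DC101 minus placebo (horizontal axis), of each gene in tumor MC (left) and peritoneal MC (right), with 95% intervals from the limma fit; filled points had an adjusted p under 0.05. The 5 filled points, all in peritoneal MC, are Kitl, Csf2ra, Il4ra and Cd200r1 above 1 and Il9r at −1.49, of which Kitl rests on placebo values under the median cluster.

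In peritoneal MC, 8 of the 10 genes had groups that did not overlap, against 46% of all clusters. DC101 was higher in 4 of them, against 21.5%, and lower in 4, against 24.6%. The 4 that were lower with DC101 were Kit, Csf2rb, Il9r and Cd200r3, of which Il9r alone passed. The median over the 10 was 0.06, beside −0.02 over all clusters.

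Marker genes of other cells moved in the same peritoneal comparison. Of 8 macrophage markers, 2 rose (Mrc1 and C1qa) and 1 fell (Fcgr1), with mean levels of 8.31 with DC101 and 7.76 with placebo. Of 5 eosinophil markers, 3 rose, with list means of 5.42 with DC101 and 3.75 with placebo. The eosinophil chemokine receptor Ccr3 rose by 3.82 and Siglecf by 3.52, while the third, Prg2, lay under the median cluster on 7 of 8 arrays. The other 2 did not pass: Epx lay under the median cluster on all 8 arrays, and Il5ra changed by 0.06. Of the 7 basophil markers, the protease gene Mcpt8 fell, with 6.89 and 7.504 with DC101, against 9.76 and 9.84 with placebo, and the integrin gene Itga2 rose by 2.55. Of 8 neutrophil markers, Mpo and Elane fell, both to levels under the median cluster with DC101. T and NK cell markers fell in 6 of 9, with means of 3.58 with DC101 and 5.58 with placebo, and B cell markers in 2 of 5, with means of 7.77 with DC101 and 8.89 with placebo. The MC markers had means of 9.24 with DC101 and 9.52 with placebo, and 0 of 11 passed, with 1 of them (Hdc) at an unadjusted p under 0.05. Csf2ra, Il4ra and Cd200r1 are also known from macrophages and eosinophils, and the part of these cells in their rise was not tested. In tumor MC, the means of the macrophage list were 6.07 with DC101 and 6.58 with placebo and those of the eosinophil list 2.50 with DC101 and 2.32 with placebo. No gene of either list passed there, and at an unadjusted p under 0.05 there were 3 of 8 macrophage and 1 of 5 eosinophil markers.

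**Figure D3:**
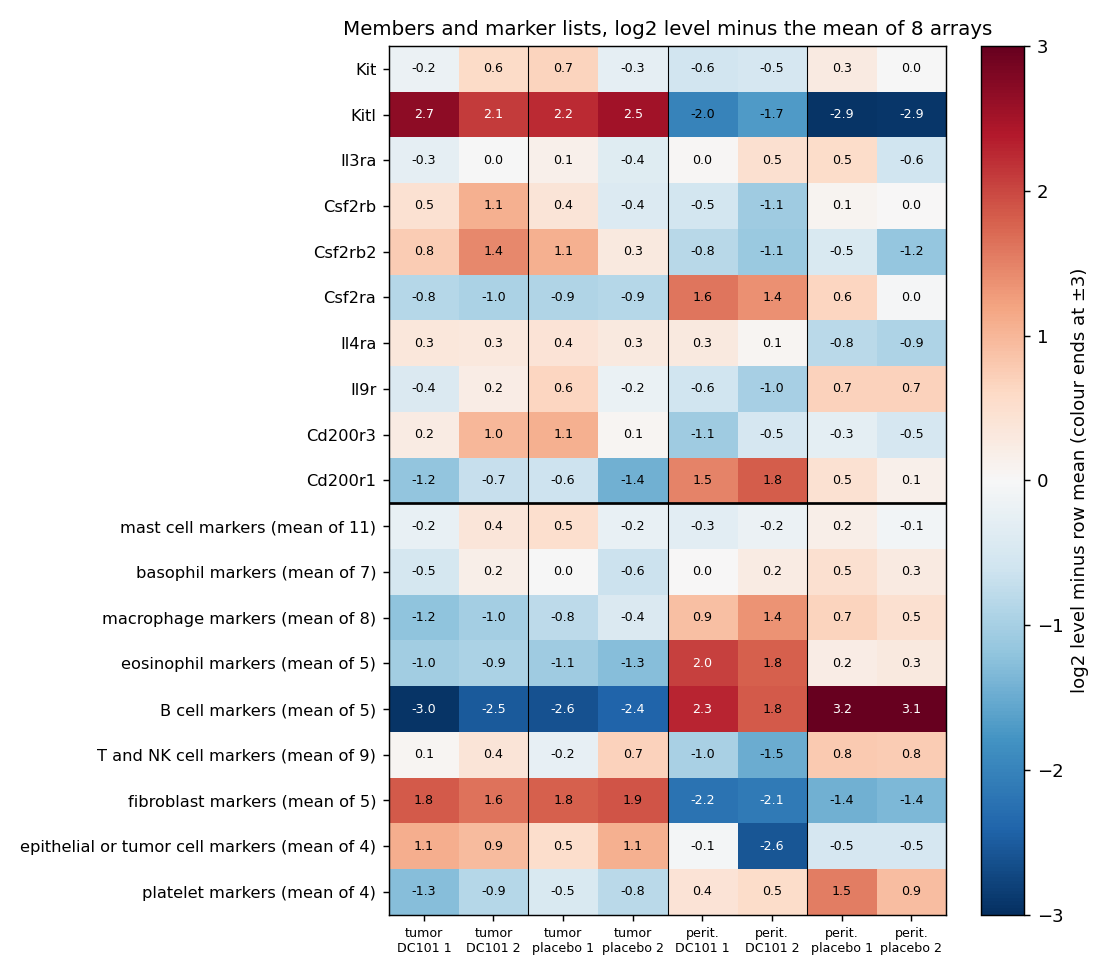
Log2 level minus the row mean over 8 arrays (colour and printed value) for each receptor gene (upper rows) and for the mean of each marker list (lower rows), with arrays in columns. Csf2ra and Cd200r1 are highest on the peritoneal DC101 arrays, as are the macrophage and eosinophil lists, and Kitl follows the tumor arrays, as does the fibroblast list.

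Whether the response to DC101 differed between the compartments was tested as an interaction, tumor response minus peritoneal response. For 0 of 10 genes this difference passed, against 0.805% of clusters. At an unadjusted p under 0.05, 6 were counted (Kitl, Csf2rb, Csf2ra, Il4ra, Il9r and Cd200r1), against 13.1% of clusters, with adjusted p-values of 0.118 (Il4ra) to 0.312 (Il9r). At the methods' thresholds, the same number was counted, 6 of 10, against 7.39%. The largest difference was that of Csf2rb at 1.62, with an interval of 0.60 to 2.65. Il4ra had −1.08 (SE 0.27) and passed, of all adjusted tests run, only where the prior of the test followed the signal intensity. The calls in peritoneal MC and their lack in tumor MC are therefore not shown to differ for any of the 10.

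Between the compartments, 6 of the 10 genes did not overlap, against 27.8% of clusters. The median difference of the 10, tumor minus peritoneal, was 0.55, beside −0.03 over all clusters. Kit differed by 0.41 (SE 0.24, interval −0.14 to 0.96), Il3ra by −0.24 (SE 0.26, interval −0.82 to 0.35) and Il9r by 0.12 (SE 0.23, interval −0.40 to 0.63), and these 3 did not pass. Among DC101 arrays alone, 6 genes were called (Kitl, Csf2rb, Csf2rb2, Csf2ra, Cd200r3 and Cd200r1), against 21.9% of clusters. Among placebo arrays alone, 5 were called (Kitl, Csf2rb2, Csf2ra, Il4ra and Cd200r1), against 19.6%. Macrophage markers were lower in tumor MC for 7 of 8 genes and higher for 1, B cell markers lower for 5 of 5 and eosinophil markers lower for 4 of 5. Their part in the lower Csf2ra and Cd200r1 of tumor MC was not tested.

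**Figure D4:**
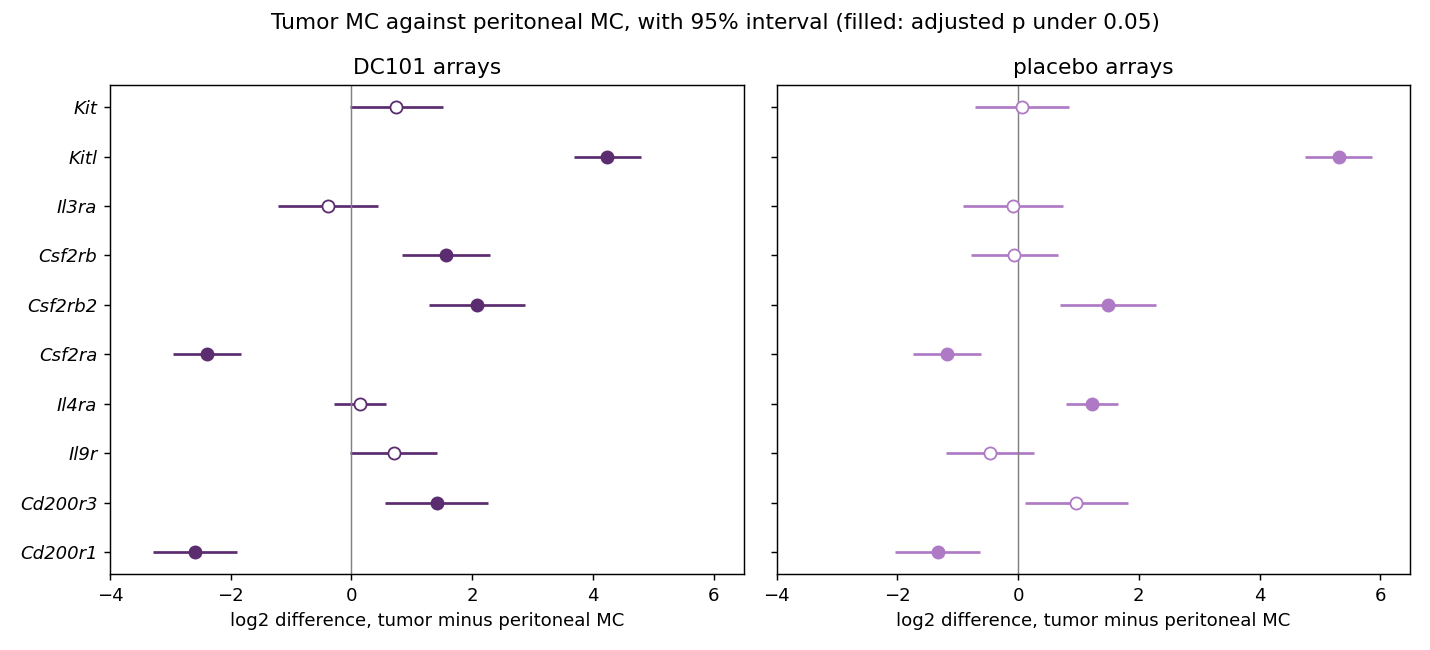
Log2 difference, tumor minus peritoneal MC (horizontal axis), with 95% intervals for the DC101 arrays (left) and the placebo arrays (right); filled points had an adjusted p under 0.05. Kitl is the farthest to the right in both panels, at fitted differences of 4.23 and 5.31 (the placebo value against peritoneal levels under the median cluster), and Csf2rb, Cd200r3 and Il4ra change sides of the threshold between the panels.

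Ligands of these receptors were read from the same arrays, together with cytokines that use related receptors (Tslp, Il7, Il2 and Il33). Of 11 measured, 2 rose in peritoneal MC with DC101, Kitl and Tslp, of which only Kitl is a ligand of the receptors described here. In tumor MC, 0 passed, and 1 (Il3, lower with DC101) had an unadjusted p under 0.05. The list had medians of −0.06 in peritoneal and −0.01 in tumor MC. Tslp, an epithelial cytokine that acts through the IL-7 receptor α chain, had 6.52 and 7.71 in peritoneal MC with DC101, against 2.30 and 2.55 with placebo, and rose (adjusted p = 0.000634), by at least 3.63 on the log2 scale where values under the median cluster are set to it. Between compartments, 5 were higher in tumor MC (16.3% of all clusters were), among them Kitl, Il13 and Il33. Lower were 2 (13.2% of all clusters), Tslp and Il4 (−1.82). The lower Tslp rested on the DC101 arrays. With values under the median cluster set to it, its difference was −3.63 among DC101 arrays and 0 among placebo arrays, where both compartments lay under the median cluster. On the same bounded scale, Il13 was higher in tumor MC by at least 4.34 and Il33 by at least 3.52, since most of their peritoneal values lay under the median cluster. Il13 and Il4 encode cytokines that both signal through IL4RA. Il3 was at 6.41 on tumor placebo replicate 1 and between 1.69 and 2.48 on the other 7 arrays, all below the median cluster, and did not pass in any comparison.

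Other cytokine receptor chains gave 27 measured genes, of which 2 rose and 2 fell with DC101 in peritoneal MC and 0 passed in tumor MC (2 at an unadjusted p under 0.05). Lifr, the receptor for leukemia inhibitory factor, rose by 1.33 and Tgfbr2, a TGF-β receptor chain, by 1.03. Il2rb, the β chain for IL-2 and IL-15, and Il7r, the α chain for IL-7 and TSLP, fell to levels under the median cluster with DC101. With such values set to the median cluster, the changes were −2.33 for Il2rb and −2.47 for Il7r. Il2rb is also in the T and NK cell list, of which 6 of 9 genes fell in the same comparison. Between the compartments, 7 were higher in tumor MC (16.3% of all clusters were) and 12 lower (13.2%). Osmr, which binds oncostatin M, was under the median cluster on all peritoneal arrays and higher in tumor MC by at least 2.95 on the bounded scale. Il5ra, the α chain for IL-5, was under it on all tumor arrays, with a bounded difference of −2.43. Of the 5 receptor tyrosine kinases of the KIT family, Pdgfra and Pdgfrb were higher in tumor MC, by at least 3.64 and 4.18 on the bounded scale since all peritoneal values lay under the median cluster, and Flt3 (−2.07 on that scale) and Csf1r (−1.99) were lower. Pdgfra is also a fibroblast marker and Csf1r a macrophage marker. None of the 5 passed with DC101 in either compartment. At an unadjusted p under 0.05 there was 1 in each, against 5.04% of clusters in tumor MC. The share of clusters at that threshold in peritoneal MC is not given here.

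Genes downstream of KIT showed no call with DC101, 0 of 20 signalling genes in tumor MC and 0 of 20 in peritoneal MC, with medians of −0.02 and −0.05. At an unadjusted p under 0.05, 0 were counted in tumor MC, against 5.04% of clusters. In peritoneal MC, 4 were counted, but the share of clusters at that threshold is not given here, so this number has no reference. Sos1, an activator of RAS, and Plcg1, a phospholipase, had the lowest p in peritoneal MC, at −0.77 and −0.86. Of 13 brakes on KIT signalling, Spred2, an inhibitor of the RAS and ERK pathway, fell by 1.11 on the log2 scale in peritoneal MC (adjusted p = 0.0150), and 0 passed in tumor MC, also at an unadjusted p under 0.05. Between the compartments, the brakes differed in 11 of 13 genes, 7 higher and 4 lower in tumor MC, with a median of 0.95, where 29.5% of all clusters differed and their median was −0.03. Spry2 (2.83 on the bounded scale), Cish (2.48), Dusp6 (1.95) and Ptpn6 (−1.92) led these. Cish is a feedback inhibitor of STAT5 and Dusp6 a phosphatase of ERK. Spry4, 1 of the 7 higher, lay under the median cluster on 5 of 8 arrays. In tumor MC, 5 of 5 fibroblast markers were also higher, and of 4 epithelial or tumor cell markers 2 were higher and 1 lower. Macrophage markers were lower there in 7 of 8 and higher in 1. The part of these cells in the differences of the brakes was not tested. Of 9 JAK and STAT genes, 1 was higher and 4 lower in tumor MC, with a median of −0.45, and 4 did not pass. With DC101, 0 passed in either compartment, and 2 in each had an unadjusted p under 0.05. In tumor MC, 5.04% of clusters had one, and the share in peritoneal MC is not given here.

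**Figure D5:**
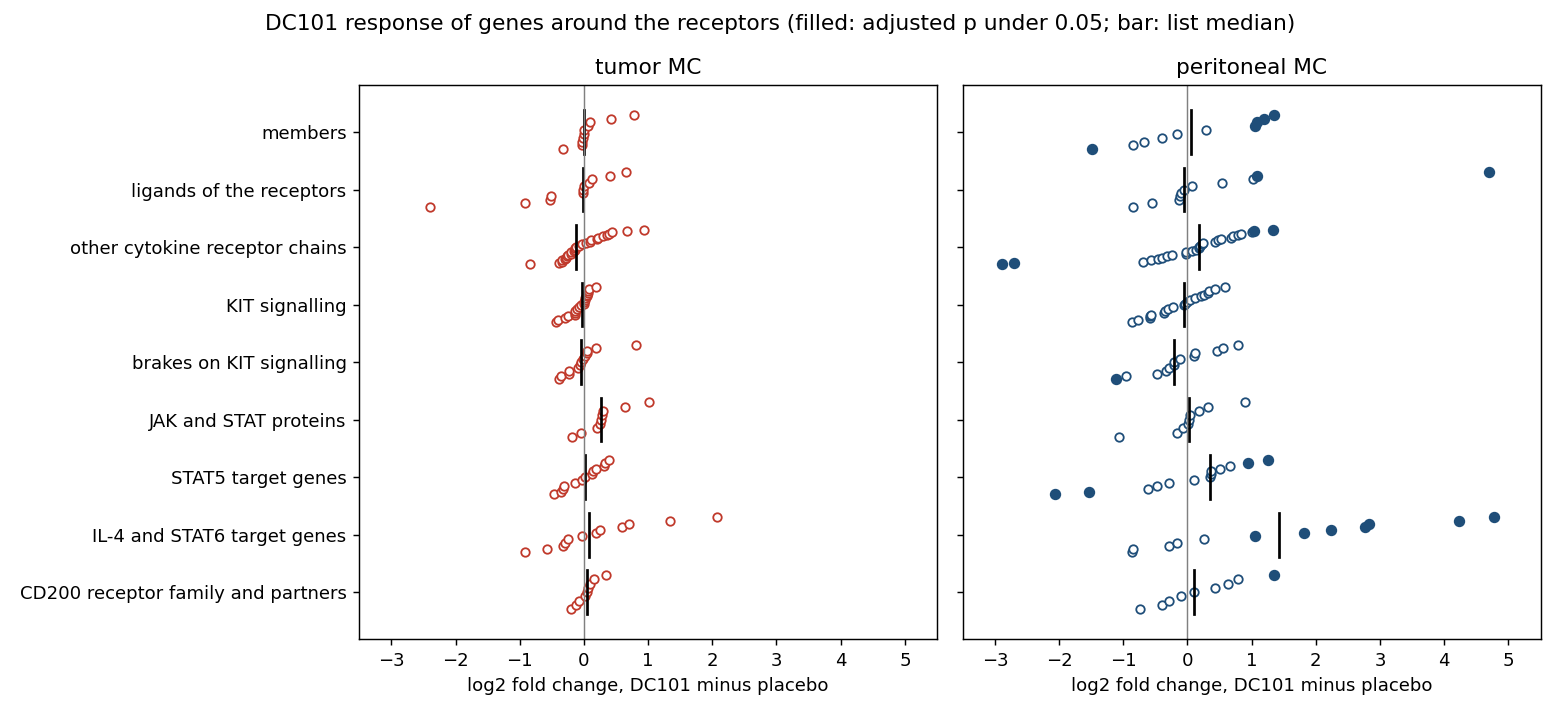
Log2 fold change, DC101 minus placebo (horizontal axis), of single genes (circles) in 9 lists in tumor MC (left) and peritoneal MC (right); filled circles had an adjusted p under 0.05 and bars mark list medians. No circle is filled in tumor MC, and the IL-4 and STAT6 target genes hold the most filled circles in peritoneal MC, 7 of 12.

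IL-4 and STAT6 target genes rose in 7 of 12 in peritoneal MC with DC101, against 2.48% of clusters that rose. Their median was 1.43, beside −0.02 over all clusters. The other 5 did not pass, with Ccl22 at −0.86, Ccl17 at −0.85, Socs1 at −0.29, Fcer2a at −0.16 and Retnla at 0.25. Chil3, a chitinase-like lectin, had 11.58 and 11.45 in peritoneal MC with DC101, against 6.72 and 6.78 with placebo, a rise of 4.77. The lectin gene Mgl2 rose by 4.23, the C-type lectin gene Cd209d by 2.14 (with values under the median cluster set to it) and the mannose receptor gene Mrc1 by 2.76, and Il4ra is itself 1 of the 7. These lectins are known from alternatively activated macrophages, and Mrc1 is also in the macrophage list. Tumor MC had 0 calls in this list, with a median of 0.08 and values of 1.34 for Chil3 and 2.07 for Retnla, neither of which passed (3 genes at an unadjusted p under 0.05). Retnla had 8.63 and 8.29 in tumor MC with DC101, against 5.01 and 7.77 with placebo, so its value rested on placebo replicate 1. The difference between the responses passed for 3 of the 12, Mgl2 (−4.53), Mrc1 (−3.68) and Chil3 (−3.43).

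Of 13 STAT5 target genes, 2 rose and 2 fell in peritoneal MC with DC101. Pim1, a survival kinase, rose by 1.25 and Socs3, a feedback inhibitor of cytokine receptors, by 0.95. Bcl2, which protects cells from apoptosis, fell by 2.07 on the log2 scale and the cyclin gene Ccnd2 fell by 1.53. The list median was 0.34 there and 0.02 in tumor MC, where 0 passed, also at an unadjusted p under 0.05. In the same peritoneal comparison, T and NK cell markers fell in 6 of 9 and B cell markers in 2 of 5. Of macrophage markers, 2 of 8 rose and 1 fell, and of eosinophil markers 3 of 5 rose. The part of these cells in the changes of the STAT5 target genes was not tested. In the CD200 receptor family and its partners, 1 of 9 genes (Cd200r1) rose in peritoneal MC. Cd200r4, the neighbour of Cd200r3, had 6.89 and 7.65 in tumor MC with DC101 and 7.49 and 6.72 with placebo, and 5.69 and 6.21 in peritoneal MC with DC101, against 5.94 and 6.15 with placebo. Like Cd200r3, it differed between compartments by 1.19. Tyrobp, the activating adapter of the family, was lower in tumor MC (−0.48), as was Hcst, a related adapter (−0.94).

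The genes most like 4 of the receptor genes over the 8 arrays were found by the root mean square difference of centred log2 values, among 10859 genes above the median cluster. This is a description, and 8 arrays in 4 groups give few independent points. Nearest to Kit was Slc43a3 at 0.0758, followed by Inpp4b at 0.0835 and Rfc2 at 0.125, where Kit itself had an SD of 0.44 over the arrays. Cd200r3 was nearest to Gata2 (0.130), a transcription factor of MC, then to Cd200r4 (0.164) and Gna14 (0.194). For Csf2rb, the closest were Rasa2 (0.218), Crtam (0.230) and Lyar (0.274). Il4ra lay closest to Ltbr (0.0947), Marchf6 (0.104) and Zmiz1 (0.106).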

How the data were processed

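Expression was measured on 8 single-colour arrays of sorted MC, 2 per group. The log2 values were made by the authors with RMA (background correction, quantile normalization between arrays, summary per transcript cluster) from image files read with R and Bioconductor packages, and deposited as 1 column per array. The submitters' processing notes give the name of the method, and no version was found for it (not given in the sources used here). Quantile normalization removes any change that all genes share. Groups and replicate numbers came from the sample labels, and 0 columns were left out.

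From these deposited log2 values, limma 3.58.1 in R 4.3.3 fitted 1 mean per group over 24111 clusters (residual degrees of freedom 4, prior 4.93), with Benjamini-Hochberg adjustment over all clusters and a call at adjusted p under 0.05. The contrasts were DC101 against placebo in each compartment, the difference of these (interaction), and tumor against peritoneal MC over both treatments. Rose, fell, higher and lower as calls refer to that threshold. The functions were tested on simulated data. Figures used matplotlib 3.10.9 in Python 3.11.15. Clusters were named from the platform annotation (21508 with 1 symbol), of which 21399 were found in RefSeq (GRCm38.p6). That build was used for promoters and gene order, since none is given for the values.

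The 10 genes and all lists were chosen with earlier results of these data known. All 10 are named, of each other list at most 4 called genes per comparison with the largest change, or up to 2 with the lowest p where none was called. Named outside that rule, after their values were seen, were Il3, Il4, Cd200r4, Tyrobp, Hcst, Spry4 and the marker genes beside the peritoneal comparison and the Cd200r3 difference. So were Ccl17, Ccl22, Socs1, Fcer2a and, in peritoneal MC, Retnla. The alternatives tried were a prior with an intensity trend, a robust prior, the fit without moderation, array weights, renormalization by cyclic loess, leaving out dim clusters or those without 1 symbol, the replicate number as a block, each compartment or treatment alone, the study's thresholds (p under 0.05 and 1 log2 unit, applied to limma's unadjusted p, since the adjustment is not stated), leaving out each array and, chosen after seeing the data, values under the median cluster set to it with dim clusters left out. The number of arrays limits the precision, since arrays have no read depth.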

Additional observations from a re-analysis of the deposited data

Results flagged for a closer look

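Of 120 genes of the receptor set and its lists, 7 passed the interaction test (adjusted p under 0.05), against 0.805% of clusters. These 7 responded to DC101 differently in tumor and peritoneal MC, and none was among the 10 receptor genes themselves. The lists were chosen with earlier results of these data known, so the count is no test of the lists. Each value is the response in tumor MC minus that in peritoneal MC on the log2 scale. Groups of 2 arrays were too small to look for single arrays far from the rest.

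Mgl2 differed by −4.53, the tumor response being −0.30 and the peritoneal response 4.23. Tslp differed by −4.29, with 0.41 in tumor MC and 4.69 in peritoneal MC. Mrc1 differed by −3.68, with −0.92 in tumor and 2.76 in peritoneal MC. For Chil3 the difference was −3.43, with 1.34 in tumor MC and 4.77 in peritoneal MC. In the other direction, Il2rb differed by 2.74 (−0.14 in tumor and −2.88 in peritoneal MC) and Il7r by 2.37 (−0.34 in tumor MC and −2.71 in peritoneal MC). Ccnd2, a cyclin gene, differed by 1.85, with 0.33 in tumor MC and −1.53 in peritoneal MC. Tslp in tumor MC and in peritoneal placebo and Mgl2 on most tumor arrays lay under the median cluster, so their responses are measured against values that cannot be separated from background. The same holds for Il2rb and Il7r, which lay under it in peritoneal MC with DC101. With such values set to the median cluster, their peritoneal changes were −2.33 and −2.47. Macrophage, eosinophil and lymphocyte markers moved in the same peritoneal arrays, and their part in these values was not tested.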

How the results depend on the processing

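For DC101 in peritoneal MC, where 5 of the 10 genes were called, 0 were called with no moderation, 2 with array weights, 1 with the peritoneal arrays alone, and 0 to 3 with 1 array left out. With the replicate block, 2 were called (Csf2ra and Il4ra). Same-numbered arrays did not deviate together (r of −0.165 between the tumor groups and −0.024 to 0.017 otherwise). Such a correlation cannot tell whether they came from the same mouse, which the labels do not state. A crossed block in the tumor arrays, chosen after seeing the data, called 0 genes. With values under the median cluster set to it, 4 were called (not Kitl, at 0.44). For the interaction, 1 gene was called with an intensity trend and 6 at the methods' thresholds, against 0. Over single receptor genes, 385 values in other settings kept their direction and side of the threshold, 21 lost a call, 1 gained it and 3 turned, and with 1 array left out 268 kept both, 31 lost a call and 21 turned. The tumor response stayed at 0 calls in every setting, and the compartment difference kept 5 to 7.

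Over all clusters, peritoneal calls numbered 1105, against 33 with no moderation, 1723 with values under the median cluster set to it, 453 with that compartment alone and 311 to 906 with 1 array left out. Interaction calls numbered 194, against 463 (trend), 0 (no moderation), 346 (dim clusters left out), 462 (those values set to it), 113 (replicate block), 1783 (methods' thresholds) and 22 to 187 (1 array left out). Compartment calls numbered 7124, against 4723 for placebo arrays and 3617 at the methods' thresholds, and tumor calls 0, against 164 at those thresholds, 1 with low values set to the median cluster and 0 to 2 with 1 array left out.

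The sign of single genes turned for Csf2ra in tumor MC with cyclic loess (0.0034) and, between compartments in placebo arrays only, for Csf2rb (−0.0609) and Il9r (−0.47). With 1 array left out, tumor responses changed sign for Kit (−0.46 to 0.47), Kitl (−0.28 to 0.29), Il3ra (−0.28 to 0.23), Csf2ra (−0.0691 to 0.0382), Il4ra (−0.0891 to 0.0240), Il9r (−0.74 to 0.0890), Cd200r3 (−0.45 to 0.56) and Cd200r1 (−0.32 to 0.50). Peritoneal responses did so for Il3ra (−0.29 to 0.86) and Csf2rb2 (−0.52 to 0.18), compartment differences for Il3ra (−0.52 to 0.0509) and Il9r (−0.0899 to 0.32), and interactions for Il3ra (−0.88 to 0.26) and Cd200r3 (−0.0566 to 0.96). Of these results only the Csf2rb difference was called over both treatments (0.75, adjusted p = 0.0334). The cause was not tested. Each gene had 1 cluster, so no other cluster could be tried.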
